A study of Homo sapiens with 2 samples.

Results

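The metallothionein genes of the doxorubicin-resistant SUM159 cells were examined together with MTF1, the gene of the transcription factor that controls many of them. The set holds 10 of the 23368 gene symbols in the count data, 9 metallothionein genes (MT1A, MT1E, MT1F, MT1G, MT1H, MT1M, MT1X, MT2A and MT3) and MTF1, all of which were found by symbol in both libraries. They were selected with the values in view, because MT1E had differed strongly between the libraries, so the levels and the differences between the libraries are described here and not tested. SUM159 is a triple-negative breast cancer cell line. The cells, of genotype Wt, grew attached in a monolayer in Ham's medium with fetal bovine serum, insulin and 1 μg/mL of the glucocorticoid hydrocortisone, and had become resistant to doxorubicin through repeated short exposures to rising doses, each with a recovery without the drug. Polyadenylated RNA was sequenced in 2 libraries, labelled replicates 1 and 2, and nothing states that they came from separate cultures. Treatment-naïve cells were not analysed here, so no condition was compared with another.

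Metallothioneins are small, cysteine-rich proteins that bind zinc, copper and cadmium, buffer zinc inside the cell and take up reactive oxygen species. Most of the human genes lie in 1 cluster on chromosome 16, where the MT1 paralogs arose by duplication, MT2A is the form that most tissues share and MT3 is known mainly from the brain. Zinc activates MTF1, which binds metal response elements in their promoters, and glucocorticoids induce MT2A.

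The promoters of some of these paralogs could be searched for such elements. RefSeq promoters (GRCh38.p14) of 4 members were matched by symbol, MT2A, MT1X, MT1H and MTF1. Each window of 300 bases was found once, letter for letter, on its own chromosome of GRCh37, and other chromosomes were not searched. MT1A, MT1E, MT1F, MT1G, MT1M and MT3 had no entry. The 250 bases upstream of the start are printed 5′ to 3′ for MT2A and MT1X, which had counts, and for MT1H, which had none. They lie on the plus strand of GRCh37 at chr16:56642246-56642495, chr16:56716132-56716381 and chr16:56703476-56703725. Capitals mark the core of the metal response element, TGCACNC or TGCGCNC on either strand, where N is any base.
MT2A: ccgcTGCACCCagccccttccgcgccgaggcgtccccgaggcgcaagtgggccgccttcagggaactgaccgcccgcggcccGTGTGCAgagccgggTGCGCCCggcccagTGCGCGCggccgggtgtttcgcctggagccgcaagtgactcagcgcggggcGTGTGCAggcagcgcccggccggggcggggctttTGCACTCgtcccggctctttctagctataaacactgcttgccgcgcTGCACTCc
MT1X: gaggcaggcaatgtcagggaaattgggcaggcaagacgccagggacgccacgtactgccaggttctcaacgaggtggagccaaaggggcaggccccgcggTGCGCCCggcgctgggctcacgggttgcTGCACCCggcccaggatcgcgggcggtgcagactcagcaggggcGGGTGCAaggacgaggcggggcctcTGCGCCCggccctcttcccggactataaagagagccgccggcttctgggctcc
MT1H: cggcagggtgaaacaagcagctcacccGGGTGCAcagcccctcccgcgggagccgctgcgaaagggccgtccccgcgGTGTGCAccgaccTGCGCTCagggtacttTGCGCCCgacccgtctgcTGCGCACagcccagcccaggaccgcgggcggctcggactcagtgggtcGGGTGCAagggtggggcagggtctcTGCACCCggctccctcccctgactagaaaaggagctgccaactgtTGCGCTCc
MT2A held 7 cores upstream of its start and 1 more just downstream, so 8 in the whole window, none of which overlapped. MT1X held 4 and MT1H held 8, all upstream. Of the 35116 promoter windows of the same length, 29.6% held at least 1 core, 0.601% at least 4 and 0.0199% at least 8, which is 7 windows. MT2A and MT1H are themselves among these 7. The windows of MT2A, MT1X and MT1H were 72%, 67% and 68.3% G or C. The windows they were set against were not matched for this content. The spacing was partly shared, since MT1X and MT1H each had cores that begin at -78 and -53, counted from the start, and MT2A had one that begins at -54. The MTF1 window on the minus strand of chromosome 1 had 0 cores. The glucocorticoid response element, searched as AGAACA, any 3 bases and TGTTCT, had no match in the 4 windows and 1 match among all windows. A pattern this strict matches so rarely that its absence from the 4 windows tells nothing about them. Looser patterns and elements farther from the start were not searched.

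MT2A, MT1E and MT1X carried the whole metallothionein signal of these cells. The 9 metallothionein genes together had 19376 counts in replicate 1 and 4524 in replicate 2. Divided by the library totals of 23044084 and 17985508 counts, and scaled to 1000000 counts (CPM), this is 841 and 252 CPM, or 546 ± 417 CPM (SD, n = 2). The family total was 3.34-fold higher in replicate 1, with a 95% counting interval from 3.24 to 3.45. Such intervals here are exact Clopper-Pearson intervals and cover counting error only, because the reads carry no molecular identifiers and may repeat molecules. Without MT1E, the gene on which the set was chosen, the total was 692 and 228 CPM, a 3.03-fold difference. In RNA from a whole culture, fewer expressing cells and less RNA per cell cannot be told apart.

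**Figure D1:**
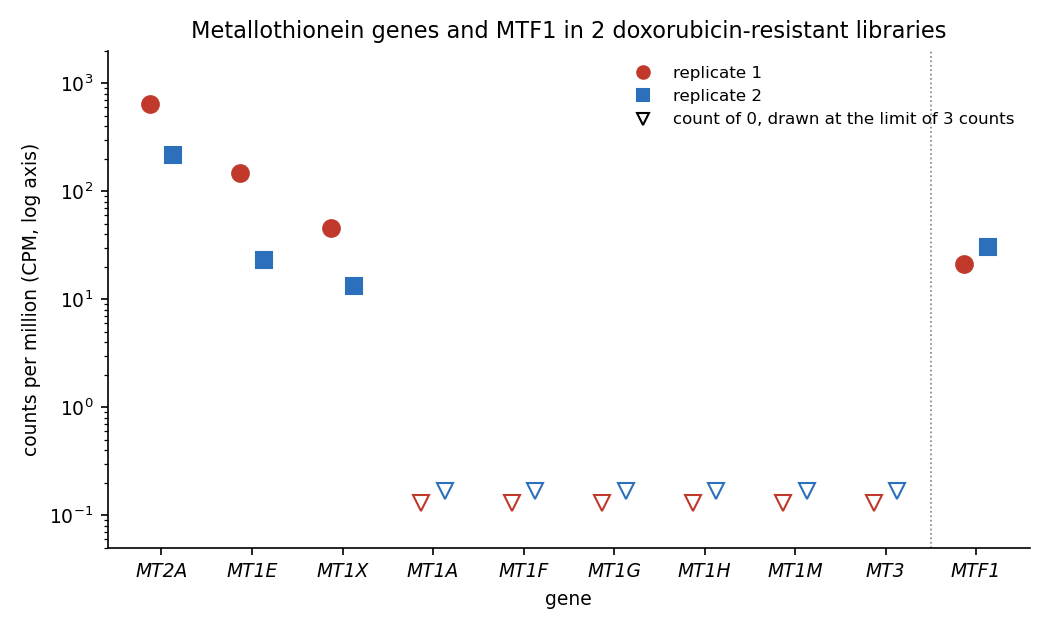
CPM on a log axis of the 9 metallothionein genes and, right of the dotted line, MTF1. Circles are replicate 1 and squares replicate 2, and open triangles mark a count of 0, drawn at the limit of 3 counts, which is 0.130 CPM in replicate 1 and 0.167 CPM in replicate 2. MT2A, MT1E and MT1X lie higher in replicate 1, MTF1 lies higher in replicate 2 at 21.3 and 30.6 CPM, and the other 6 genes have no counts.

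Of the 10 members, 4 reached an average of 20 counts over the libraries, which is the minimum that the methods of the study apply to bulk RNA-seq, and 3 of these were at least 2-fold higher in replicate 1 while 0 were at least 2-fold higher in replicate 2. Among all 12340 genes that reached this minimum, 1.39% were at least 2-fold higher in replicate 1, 3.60% in replicate 2 and 4.99% in either, with a median log2 ratio of 0.0034 and 50.3% higher in replicate 1 by any amount. Because the members were chosen on this difference, nothing is read from their number.

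MT2A, which encodes metallothionein-2, was the most abundant member. It lies on the plus strand of chromosome 16 of GRCh37 from 56642496 to 56643409. It had 14903 counts in replicate 1 and 3867 in replicate 2, which is 647 and 215 CPM. Its mean was 431 ± 305 CPM (SD, n = 2), and in CPM it ranked 168th of all genes in replicate 1 and 908th in replicate 2. Replicate 1 was 3.01-fold higher (2.90 to 3.12). The lower of its values still exceeded the higher value of MT1E, so the ranges of these genes over the libraries did not overlap on the CPM scale.

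MT1E encodes an MT1 isoform and lies downstream of MT2A on the same strand, from 56659387 to 56661024. It had 3421 counts in replicate 1 and 418 in replicate 2, which is 148 and 23.2 CPM. The standard deviation was larger than the mean, 85.8 ± 88.5 CPM (SD, n = 2), so a single level of MT1E cannot be given for these cells. The log2 ratio of replicate 1 over replicate 2 was 2.68 (2.53 to 2.83), a 6.39-fold difference. Only 9 of the 12340 genes differed more in that direction. In level, MT1E ranked 1396th in replicate 1 and 7450th in replicate 2, so that it is among the abundant genes of one library and among the ordinary genes of the other.

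MT1X, a further MT1 isoform at the downstream end of the cluster, lies from 56716382 to 56718108 on the plus strand. It had 1052 counts in replicate 1 and 239 in replicate 2, or 45.7 and 13.3 CPM, with a mean of 29.5 ± 22.9 CPM (SD, n = 2). Replicate 1 was 3.44-fold higher (2.98 to 3.97). This interval overlaps that of the MT2A ratio, whereas the MT1E ratio lay above both. An annotated long noncoding RNA overlaps MT1X on the same strand, is not among the symbols of the count data and could share its reads. On the CPM scale the values of MT1X and MT1E overlapped between the libraries.

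Because 1 transcript of a longer gene yields more reads, levels were compared between paralogs per kilobase of the Ensembl canonical transcript. This transcript has 401 bases for MT2A, 746 for MT1E and 404 for MT1X. MT2A had 1613 CPM per kilobase in replicate 1 and 536 in replicate 2. MT1E had 199 and 31.2 CPM per kilobase, and MT1X had 113 and 32.9. MT2A therefore stood first in both libraries. MT1E lay above MT1X in replicate 1. In replicate 2 they lay close together, with MT1E at 0.947 times MT1X, and no counting interval was computed for this ratio per kilobase. Per kilobase of merged exons, which include retained introns, MT1E exceeded MT1X in both libraries, 5.34-fold and 2.87-fold. Per kilobase of the longest coding transcript it did so 2.35-fold and 1.26-fold. The order of MT1E and MT1X in replicate 2 depends on the length that is chosen, and their ranges over the 2 libraries overlapped on each length.

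MT2A contributed 76.9% of the metallothionein counts in replicate 1 (95% interval 76.3 to 77.5) and 85.5% in replicate 2 (84.4 to 86.5). MT1E contributed 17.7% (17.1 to 18.2) and 9.24% (8.41 to 10.1). MT1X contributed 5.43% (5.11 to 5.76) and 5.28% (4.65 to 5.98). The intervals of MT1X overlap and those of MT2A and MT1E do not, but they cover counting error only. How much these shares vary between cultures is not known from 2 libraries. For each MT2A count there were 0.230 counts of MT1E in replicate 1 and 0.108 in replicate 2, and 0.0706 and 0.0618 counts of MT1X. Per kilobase of canonical transcript, MT2A made up 83.8% and 89.3% of the family, and MT1E 10.3% and 5.19%. The 589 CPM by which the family total differed between the libraries came to 73.3% from MT2A, which accounts for 432 CPM, to 21.2% from MT1E and to 5.49% from MT1X.

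**Figure D2:**
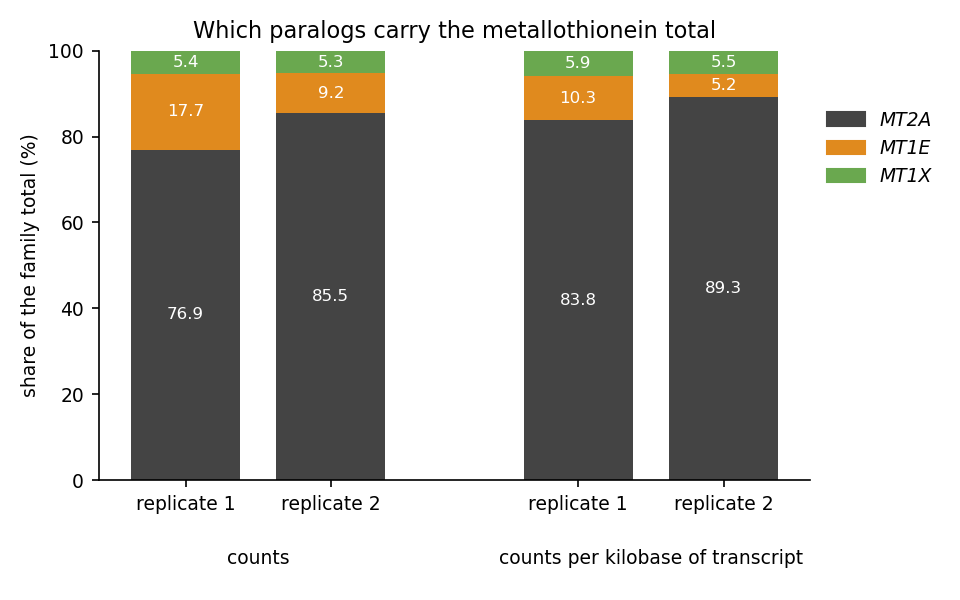
Share of the metallothionein total in percent for each library, from counts in the left pair of bars and from counts per kilobase of canonical transcript in the right pair. MT2A (grey) carries 76.9% and 85.5% of the counts, MT1E (orange) 17.7% and 9.24%, and MT1X (green) 5.43% and 5.28%.

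The remaining paralogs had no counts in either library. These are the MT1 isoform genes MT1A (56672578 to 56673999), MT1F (56691643 to 56694610), MT1G (56700642 to 56701977, on the minus strand), MT1H (56703726 to 56705041) and MT1M (56666571 to 56667893), and MT3 (56622986 to 56625000). A count of 0 allows up to 3 counts, which is 0.130 CPM in replicate 1 and 0.167 CPM in replicate 2, or at most 0.0155% and 0.0663% of the family total. Per kilobase of their canonical transcripts of 396 to 425 bases, the limit lay between 0.306 and 0.329 CPM in replicate 1 and between 0.392 and 0.421 in replicate 2. MT2A was at least 1273-fold higher than these limits in either library. Other metallothionein symbols in the data, MT4, MT1B, MT1L, MT1JP, MT1DP and MT1IP, had no counts either. Of all symbols, 28.1% were at 0 in both libraries.

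Paralogs this similar can lose reads that match more than 1 place, and how such reads were counted was not stated. At the read length of 100 bases, stretches of the canonical transcripts were therefore looked up in all GENCODE transcripts and the GRCh37 genome. For MT1E, 28 of 647 stretches also occurred elsewhere, 4.33%, of which 22 were in MT1M. For MT1H it was 10 of 298, 3.36%, each of them also in MT1HL1, a copy on chromosome 1. No stretch of the other 7 metallothionein transcripts occurred elsewhere. With up to 1 mismatch the share was 10.6% for MT2A, 9.12% for MT1E, 9.73% for MT1H, 3.93% for MT1X and 3.22% for MT1G, and it was still 0% for MT1A, MT1F, MT1M and MT3. Most of each canonical transcript that had no counts is thus distinct from its paralogs at this read length. Their other isoforms were not looked up. The MT1E stretches that occurred in MT1M, 22 exactly and 47 with up to 1 mismatch, lie outside the canonical MT1M transcript. MT1M thus shares sequence with MT1E that its 0% leaves out.

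Short genes in general had higher values in replicate 1, and metallothionein transcripts are short. Across 10767 genes at this minimum with an annotated length, the log2 ratio of replicate 1 over replicate 2 had a Spearman rho of -0.55 with the length of the merged exons, with genes sharing the same 2 libraries. The median log2 ratio was 0.48 for the 134 genes under 1000 bases, the class of MT2A, and 0.39 for the 661 genes from 1000 to 2000 bases, the class of MT1E and MT1X. In these classes 12.7% and 4.99% of genes were at least 2-fold higher in replicate 1. After the smooth trend with length was subtracted, the log2 ratio was 2.21 for MT1E, 1.41 for MT1X and 1.10 for MT2A. With the length of the canonical transcript in its place, these values were 2.21, 1.19 and 1.00. MT1E then differed 4.61-fold on the first of these scales, and MT2A came to lie at the 2-fold mark on the second. The part of gene length in the difference of these members beyond this subtraction was not tested.

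**Figure D3:**
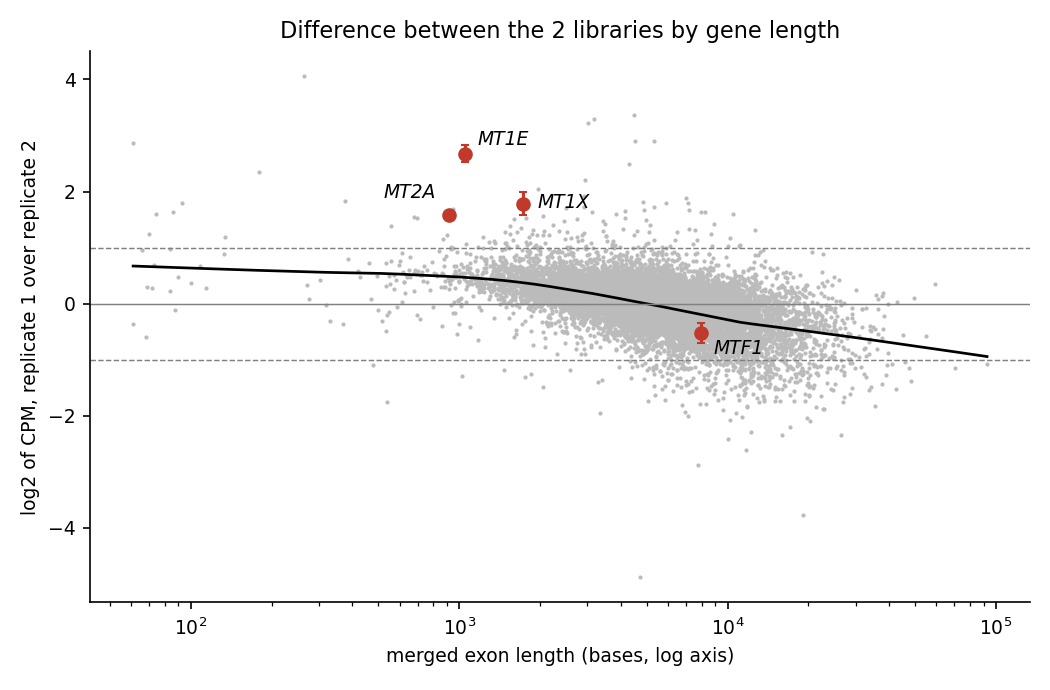
The log2 ratio of CPM, replicate 1 over replicate 2, against merged exon length in bases on a log axis for 10767 genes (grey), with the smooth trend (black line) and dashed lines at 2-fold. Red points are members with 95% counting intervals, and MT1E at 2.68, MT1X at 1.78 and MT2A at 1.59 lie above the trend while MTF1 at -0.52 lies below it.

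Most other genes around the cluster lay close to equal in the libraries. The metallothionein genes of the data span 119 kb of chromosome 16, and 27 other protein-coding genes lie within 1000 kb of them. Of the 18 at the minimum count, 10 were higher in replicate 1, with a median log2 ratio of 0.05, and 16 lay within 1.5-fold. BBS2, a gene of the primary cilium that overlaps the upstream end of the 119 kb, had 42.6 and 42.4 CPM. The nearest gene downstream, NUP93, of the nuclear pore, had 104 and 113 CPM. PLLP, a membrane protein gene, was the exception at 2-fold with 9.37 and 3.95 CPM, a log2 ratio of 1.25. Its 216 and 71 counts gave a counting interval of the log2 ratio from 0.85 to 1.66. After the length trend over merged exons, 8705 bases for PLLP, its log2 ratio was 1.48. This value lay above the 1.41 of MT1X and the 1.10 of MT2A and below the 2.21 of MT1E. The canonical transcript of PLLP has 1497 bases. The trend over canonical transcripts was not computed for PLLP, so its place beside these genes is not settled. No copy number was measured.

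**Figure D4:**
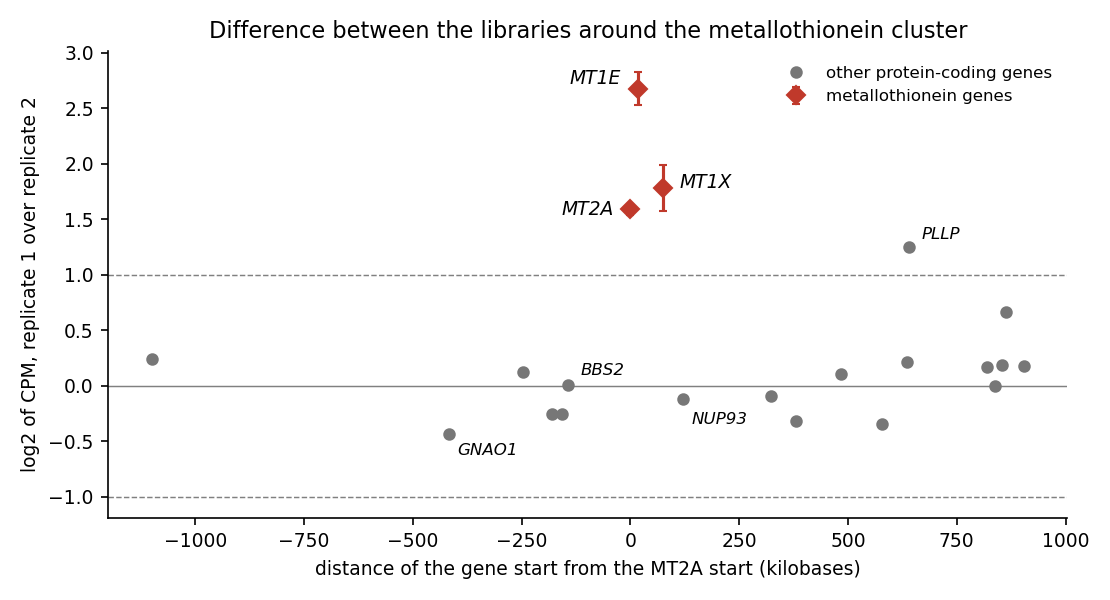
The log2 ratio of CPM, replicate 1 over replicate 2, of 3 metallothionein genes (red, with 95% counting intervals) and 18 other protein-coding genes at the minimum count (grey), by the distance of their start from that of MT2A in kilobases. Dashed lines mark 2-fold in either direction, and apart from PLLP at 1.25 the other protein-coding genes lie between them.

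MTF1, the zinc-sensing activator, was higher in replicate 2 in CPM, a difference that depends on the treatment of length. On the minus strand of chromosome 1 from 38275246 to 38325264, it had 491 counts in replicate 1 and 551 in replicate 2, which is 21.3 and 30.6 CPM, or 26.0 ± 6.60 CPM (SD, n = 2). Replicate 2 was 1.44-fold higher (1.27 to 1.63), where MT2A, MT1E and MT1X were lower. Its canonical transcript of 7937 bases is long, and its 7989 bases of merged exons lie at the border of length classes with median log2 ratios of -0.05 below 8000 bases and -0.33 from there on. The trend at its own length was -0.19. The log2 ratio of MTF1 of -0.52 became -0.33 after the length trend over merged exons and -0.02 over canonical transcripts. Per kilobase of canonical transcript, MTF1 had 2.68 and 3.86 CPM, below each of the 3 metallothionein genes with counts. The other genes that MTF1 is known to act on include SLC39A10, which it is known to repress, so nothing is read from their directions together. Of 6 listed, 5 reached the minimum count, and 2 of these were higher in replicate 1 and 3, SLC30A1, SLC39A10 and GCLC, in replicate 2. Their median log2 ratio was -0.13, and -0.18 after the length trend for the 4 with a length. SEPW1, a selenoprotein gene, had 44.3 and 34.4 CPM, and GCLC, which makes glutathione, had 30.9 and 33.7. PGF, a placental growth factor, had 31 and 15 counts, and HAMP, the iron hormone hepcidin, had 0. The counting intervals of the log2 ratio included equality for GCLC (-0.29 to 0.03) and for PGF (-0.24 to 1.68).

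Zinc exporters of the SLC30 family, move zinc out of the cytosol. Of 10 genes, 7 reached the minimum count, of which 0 were at least 2-fold higher in replicate 1 and 1 in replicate 2. Their median log2 ratio was -0.21, and -0.10 after the length trend. SLC30A1, the exporter at the plasma membrane and a known MTF1 target, had 43.3 and 62.2 CPM. It was higher in replicate 2, opposite to MT2A. SLC30A5, of the secretory pathway, was the highest in CPM with 143 and 156. SLC30A7 followed at 53.9 and 57.8 CPM. SLC30A4 was the one 2-fold apart, with 3.21 and 6.62 CPM and a log2 ratio of -1.04, which became -0.85 after the length trend. SLC30A2, SLC30A8 and SLC30A10 had no counts.

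Zinc importers of the SLC39 family bring zinc into the cytosol. Of 14 genes, 10 reached the minimum count, with 6 higher in replicate 1. Their median log2 ratio was 0.09, and 0.10 after the length trend. SLC39A10, a plasma membrane importer that MTF1 is known to repress, had 64.4 CPM in replicate 1 against 246 in replicate 2. Its log2 ratio was -1.93 (-2.02 to -1.85) and -1.79 after the length trend, so replicate 2 was 3.81-fold higher, opposite to the metallothioneins. SLC39A14, an importer of zinc and iron, had 192 and 229 CPM. SLC39A1 and SLC39A6, at the plasma membrane, had 163 and 133 CPM and 123 and 157 CPM. SLC39A2 had no counts and SLC39A12 had 1 and 0. SLC39A7, of the endoplasmic reticulum, had 4 counts in each library, and whether its reads match more than 1 place was not looked up.

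Copper handling genes, listed because metallothioneins also bind copper, were all expressed. Of these, 0 of 10 were 2-fold apart, against 4.99% of all genes at the minimum count. Their median log2 ratio was 0.20, and 0.02 after the length trend. The uptake transporter SLC31A1 had 81.2 and 89.9 CPM. The copper chaperones ATOX1 and SCO2, of the secretory pathway and of mitochondria, had 65.1 and 46.3 CPM and 34.3 and 24.2 CPM. At the lower end were SLC31A2 with 9.37 and 8.62 CPM and the export pump ATP7B with 3.04 and 4.95.

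Glucocorticoid genes were listed because the medium held hydrocortisone. NR3C1, the glucocorticoid receptor, had 224 and 372 CPM and was the highest of the 10. Of the 8 at the minimum count, 4 were higher in replicate 1. Their median log2 ratio was -0.08, and 0.01 after the length trend. The receptor targets KLF9 and FKBP5 had 107 and 140 CPM and 44.9 and 57.2 CPM. TSC22D3, a target in many cell types, had 22.0 and 21.0 CPM, and PER1, a clock gene and target, had 16.1 and 18.7. DUSP1 and SGK1, targets that also answer to stress, had 54.0 and 36.6 CPM and 27.1 and 19.6 CPM. HSD11B1, which regenerates active glucocorticoid, had 6.34 and 3.11 CPM and was the one gene 2-fold higher in replicate 1. Its difference was 2.03-fold (1.49 to 2.82), and 1.53-fold after the length trend. HSD11B2, the inactivating enzyme, had 5 and 9 counts, and ZBTB16 had 6 in each.

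**Figure D5:**
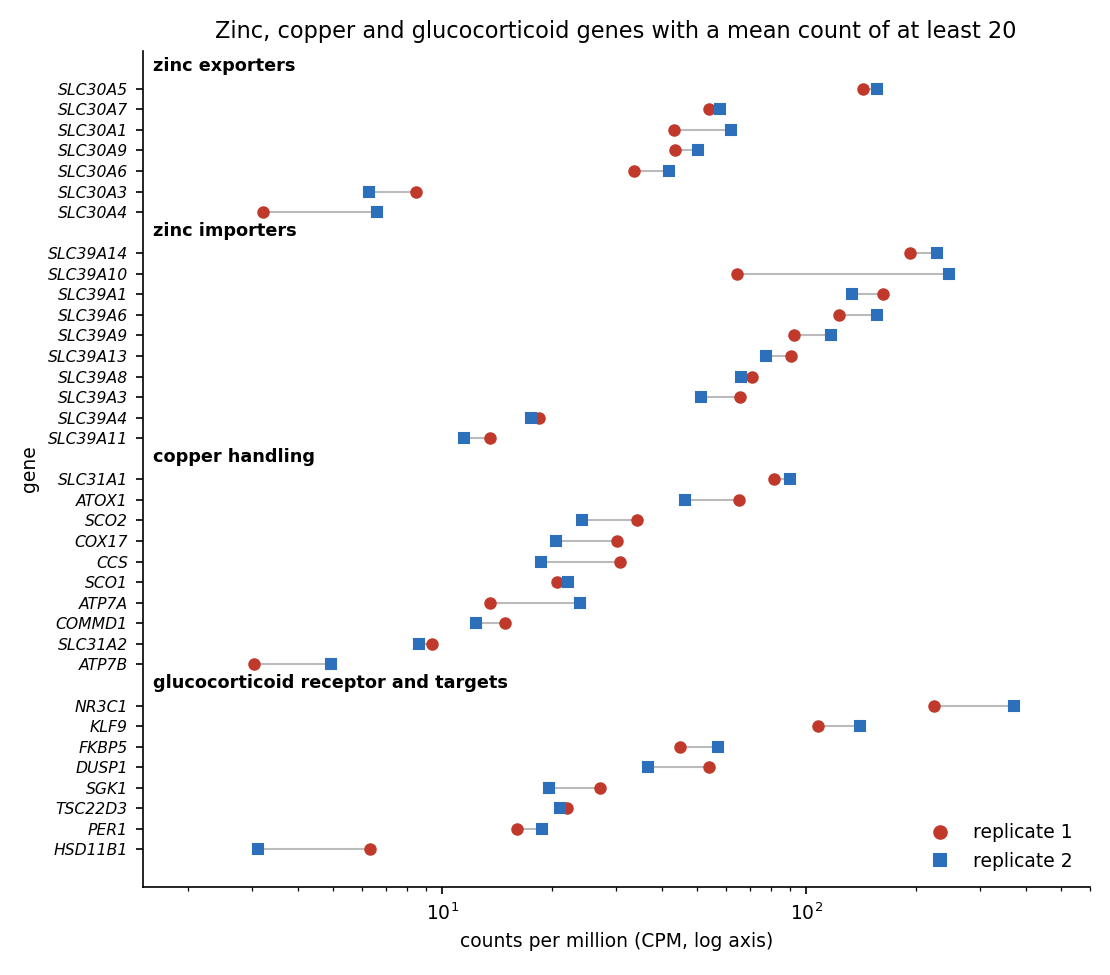
CPM on a log axis of the zinc, copper and glucocorticoid genes whose mean count was 20 or more, grouped by list and ordered by mean CPM. Circles are replicate 1 and squares replicate 2, joined by a line for each gene, and the widest gap is that of SLC39A10 at 64.4 and 246 CPM.

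The cell type markers were checked against the label of the line. VIM and SPARC, mesenchymal genes, had 8159 and 6925 CPM and 1989 and 2171 CPM, and FN1 had 2027 and 5101. The hormone receptor genes ESR1 and PGR had 11 and 9 counts and 2 and 0, whereas ERBB2, the gene of HER2, had 95.1 and 104 CPM. Of the 5 markers of leukocytes, endothelium, red cells and liver, CD3E, HBB and ALB had no counts, PTPRC had 48 and 31 counts and PECAM1 24 and 20.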

How the data were processed

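RNA of doxorubicin-resistant SUM159 cells was sequenced in 2 libraries with the NEBNext Ultra II Directional kit in single-end reads of 100 bases. The labels name TRI reagent for the extraction and the methods name the RNeasy kit. For both libraries the authors deposited counts of reads by gene symbol, not normalized. By the submitters' processing notes and the methods, reads were checked with FastQC, mapped to hg19 with HISAT2 and counted with HTSeq, and deepTools is also listed. Versions, annotation, strand setting and the handling of reads with several matches are not given in the sources used here.

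CPM were computed from the sum of all counts of a library, 23044084 and 17985508, so that 1 count is 0.0434 and 0.0556 CPM. Ratios between libraries carry 95% Clopper-Pearson intervals of the split of the summed counts and have no p-value, since both libraries are of 1 condition and the members were chosen on this difference. Of the symbols, 82.6% were matched to GENCODE v44 lifted to GRCh37 by current symbol, which gave coordinates and lengths. The length trend was a lowess with a span of 0.3. The ratio and the length trend were tested on simulated data. The search of shared stretches was only checked to find a stretch of each metallothionein transcript among the GENCODE transcripts. Named are all members, the other metallothionein symbols and, of the zinc, copper, MTF1 target and glucocorticoid lists, genes above 100 CPM in both libraries, the highest 3, the lowest 2 and those 2-fold apart. GCLC, SLC39A7, TSC22D3, PER1, DUSP1, SGK1, BBS2, NUP93 and PLLP were named after their values were seen. The members and lists were chosen with earlier results of these data known. Alternatives were edgeR and DESeq2 scaling, a pseudocount of 0.5, the minimum count, the length used, the stretch length and each library alone. The tools were edgeR 4.0.16 and DESeq2 1.42.0 in R 4.3.3, and statsmodels 0.14.6, scipy 1.17.1, matplotlib 3.10.9, pandas 2.3.3 and numpy 2.4.6 in Python 3.11.15.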

Additional observations from a re-analysis of the deposited data

How the results depend on the processing

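Each of the 23 alternatives to a log2 ratio kept its sign, but the scalings and the pseudocount could hardly move these ratios. The MTF1 log2 ratio nearly vanished, at -0.02, after the length trend over canonical transcripts. With the scaling of edgeR or DESeq2 the MT1E log2 ratio was 2.68 and 2.67, and with a pseudocount 2.67. It moved only with the length trend, to 2.21 over merged exons as over canonical transcripts, a length chosen after seeing the data. The share of all genes at least 2-fold apart was 6.11% at a minimum mean count of 10 and 10.4% with a count above 0 in both libraries, where more genes of few counts enter. The median share of shared stretches over the 9 metallothionein transcripts was 0% at 100 bases, 1.23% at 75 bases and 3.22% with up to 1 mismatch. With each library alone, the family total was between 252 and 841 CPM and the MT2A share between 76.9% and 85.5%, so its level depends on the library taken. The MT2A share per kilobase was 86.6% over canonical transcripts, 84.8% over merged exons and 83.3% over the longest coding transcripts, as the mean of both libraries. No paired analysis was possible because the labels hold a single group. With 2 libraries of 1 condition, the depth allows MT2A and MT1E to be measured well in each library, but the spread between cultures is not known.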
